A study of Mus musculus with 6 samples.

Results

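The vascular guidance genes described here are the semaphorins of classes 3 to 7, the plexins, the ephrins and Eph receptors, Slit and Robo genes, netrins and the netrin receptors Unc5a and Unc5c. They were chosen by gene symbol from a table of 23207 gene symbols, in which 59 rows matched these families once 3 genes (Sema3g, Efnb2 and Ephb4) were set aside by name. Of these 59 rows, 55 had at least 10 estimated counts in at least 3 libraries and are the guidance genes of this text, 54 of them protein coding and 1, Plxna4os1, a noncoding RNA antisense to Plxna4. No guidance gene reached that minimum through the libraries of 1 group alone (0 of 55). Just inside the minimum lay Epha5, with 12.2, 3.04 and 9.07 estimated counts in MLKL ASO mice 1603, 1604 and 1607 and 12, 11.1 and 7.17 in control ASO mice 1601, 1602 and 1608. Just outside it lay Ntn5, with 4, 3 and 6.61 estimated counts in the MLKL ASO mice and 14.3, 7.23 and 11.6 in the control ASO mice, and the other rows left out were Epha8, Sema5b and Sema6c.

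RNA was sequenced from endothelial cells of the spleen, with 1 library per mouse. Mice 1603, 1604 and 1607 had received an ASO (antisense oligonucleotide), which base-pairs with a target transcript and lowers it, here that of Mlkl, and carry the genotype label Mlkl KD. Mice 1601, 1602 and 1608 had been given a control ASO. All 6 mice were Apoe knockouts, which lack apolipoprotein E, and all received their ASO for 8 weeks while fed a high cholesterol diet. The age and sex of the mice, the dose of the ASO and the way the endothelial cells were isolated were not stated. Mlkl encodes the pseudokinase that ruptures the cell membrane in necroptosis. The series is about the spleen as a surrounding for blood formation in atherosclerosis.

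Guidance proteins were named for steering axons, and endothelial cells use the same ligands and receptors to decide where vessels grow, how tightly cells adhere and where an artery meets a vein. Semaphorins act through plexins, which switch off small GTPases of the Ras and Rap families. Class 3 semaphorins are secreted and usually need a neuropilin as co-receptor, whereas those of classes 4 to 6 span the membrane. Ephrins and Eph receptor kinases both sit in membranes, so they signal between touching cells and in both directions. Slit proteins bind Robo receptors, and netrins bind Dcc, neogenin and Unc5 receptors. Several semaphorins are also made by lymphocytes and dendritic cells, among them Sema4a, Sema4d and Sema7a.

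Libraries held 59988846 to 85724084 estimated counts in the MLKL ASO group and 67699450 to 87776706 in the control ASO group. Mlkl measured 7.53, 5.81 and 3.74 CPM (counts scaled to a common library size) in the MLKL ASO mice, against 30.7, 31.2 and 38 CPM in the control ASO mice. All 10 pan-endothelial markers were detected in every mouse, with Cdh5, the VE-cadherin gene, at 149 to 174 CPM in the MLKL ASO group and 107 to 236 CPM in the control ASO group. Their summed level was 3012, 2698 and 2890 CPM in mice 1603, 1604 and 1607, against 2082, 2914 and 3877 CPM in mice 1601, 1602 and 1608, so control mouse 1601 held the lowest and control mouse 1608 the highest endothelial level. RNA of blood cells was present in each library. The 10 T and NK cell markers summed to 136, 195 and 155 CPM in the MLKL ASO mice, against 554, 288 and 208 CPM in the control ASO mice, and did not overlap. The 8 B cell markers summed to 907, 710 and 1137 CPM with the MLKL ASO, against 2252, 1265 and 988 CPM with the control ASO. The 7 dendritic cell markers summed to 301, 290 and 357 CPM with the MLKL ASO, against 641, 403 and 407 CPM with the control ASO, and did not overlap. In all 6 mice the largest part of that sum was Ccr7, which lymphocytes also express, at 162, 142 and 210 CPM with the MLKL ASO and 481, 273 and 211 CPM with the control ASO. The next largest, Zbtb46, overlapped, at 109, 107 and 109 CPM with the MLKL ASO and 93, 92.7 and 158 CPM with the control ASO. It was highest in mouse 1608, as the summed endothelial markers were. Every other gene of the list lay at 18.7 CPM or below in each mouse. The sum is therefore mostly Ccr7 and Zbtb46 and not a measure of dendritic cells alone. Control mouse 1601 was the highest library for each of these 3 lists. The 7 megakaryocyte and platelet markers summed to 1340, 2805 and 1941 CPM with the MLKL ASO, against 1104, 1555 and 96.8 CPM with the control ASO, where control mouse 1608 stood far below all other mice. The 8 erythroid markers summed to 47079, 90565 and 39929 CPM with the MLKL ASO, against 75464, 28515 and 26010 CPM with the control ASO. In bulk RNA, fewer cells of a type and less RNA per cell cannot be told apart.

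Guidance genes covered a wide range of levels once these were set per length of exon. Per kilobase (kb) of exon, the ephrin-A1 gene Efna1 was the highest of the 55 in both groups, at 48.3 CPM per kb with the MLKL ASO and 64.2 CPM per kb with the control ASO. Next came the secreted semaphorins Sema3a (30.7 and 23.9 CPM per kb) and Sema3d (30.5 and 25 CPM per kb), then the plexin Plxnd1 (15.1 and 12.9 CPM per kb) and Sema3f (11.2 and 8.93 CPM per kb), the MLKL ASO level given first each time. The levels of Sema3a and Sema3d per kb lay too close to rank them, and they changed places between the groups. At the other end, Slit2 measured 0.00546 CPM per kb with the MLKL ASO and 0.00745 CPM per kb with the control ASO, and Epha5 0.00681 and 0.00758 CPM per kb. In all, 38 guidance genes averaged 1 CPM or more over the 6 mice and 17 lay under it. Sema3a and Sema3d together made up 50.5% to 51.9% of the summed guidance CPM in MLKL ASO mice and 40.2% to 47.7% in control ASO mice. This share is of CPM that are not set per length of exon. The CPM of both genes overlapped between the groups, and a share also rises when other guidance genes fall. Sema3a, Sema3d and the lowest genes are named here after their values were seen, as are all guidance genes below that neither separated the groups at 1 CPM or more nor stand in the list of fixed names.

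**Figure D1:**
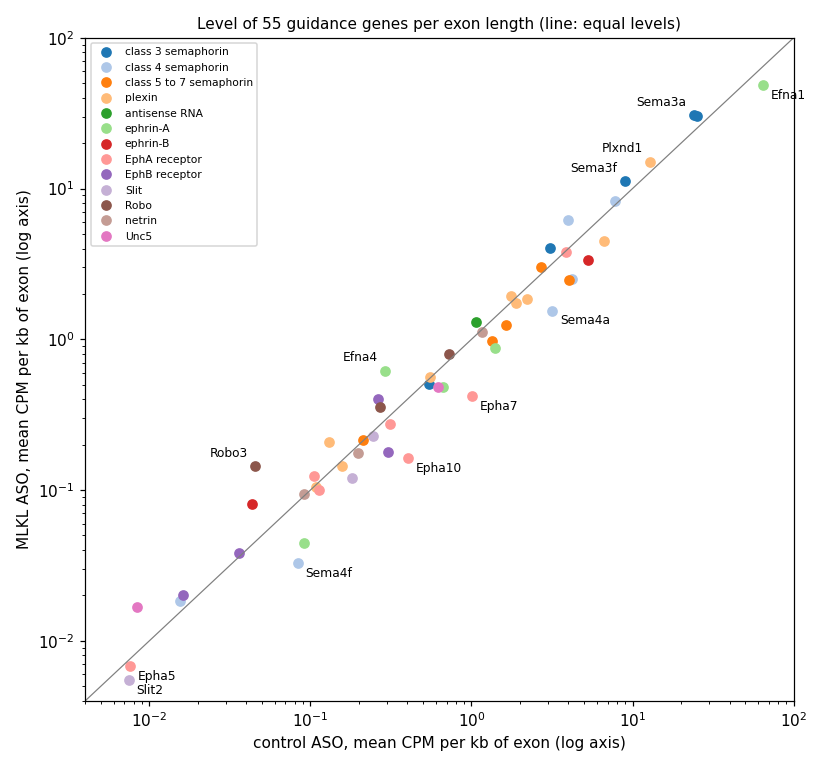
Mean level of each of the 55 guidance genes in the MLKL ASO group (vertical) against the control ASO group (horizontal), in CPM per kb of exon on log axes, coloured by family. Points near the line had like levels in both groups. Sema4a, Epha7 and Epha10 lie below it and Robo3 and Efna4 above it.

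In edgeR, whose quasi-likelihood test covered 19745 genes, 0 of the 55 guidance genes passed an adjusted p of 0.05, and 1 gene of all tested (0.00506%) passed as higher and 1 (0.00506%) as lower. Mlkl, the target of the ASO, did not pass either (log2 fold change -2.55, SE 0.27, edgeR adjusted p = 0.0655). Its adjusted p was 1.2e-15 in DESeq2 and 0.0186 by limma-voom. Not passing in edgeR therefore does not show that a level was unchanged. At an unadjusted p under 0.05 in edgeR there were 1 guidance gene higher (Efna4) and 6 lower (Efnb1, Sema4a, Plxnb1, Epha7, Epha10 and Sema6a) with the MLKL ASO, or 1.82% and 10.9% of the 55, beside 4.89% and 6.96% of all genes tested. DESeq2 called 0 guidance genes higher and 1 lower, Sema4a, beside 1.13% of all genes higher and 1.47% lower. By limma-voom with sample weights 0 passed, beside 0.0456% of all genes higher and 0.0658% lower. By the adjusted p of the authors' deposited table, at the same threshold, the number of guidance genes was 0, beside 0.879% of its genes higher and 0.941% lower. Fold changes lay on both sides of 0, with 25 guidance genes above it and 30 below it. For MLKL ASO minus control ASO the median over the 55 was -0.07 on the log2 scale, with a range from -1.33 (Epha10) to 1.65 (Robo3). Over all genes tested the median was -0.01 and 51.2% were below 0, beside 54.5% of the guidance genes. With a mean of at least 1 CPM, 22 of 38 guidance genes lay below 0, beside 53% of all such genes.

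The CPM of the groups did not overlap in 10 guidance genes, 9 lower and 1 higher in MLKL ASO mice. That is 16.4% of the 55 as lower, beside 9.71% of all genes tested, and 1.82% as higher, beside 9.02%. Among genes with a mean of at least 1 CPM the shares were 23.7% of 38 guidance genes as lower, beside 11.1% of all such genes, and 0% as higher, beside 8.78%. The 9 lower genes were Efnb1, Sema4a, Plxnb1, Epha7, Sema6a, Efna2, Plxnb2, Sema7a and Sema4d, and the higher one was Efna4. The lower side held 6 of 29 ligands (20.7%) and 3 of 25 receptors (12%), beside 9.71% of all genes tested. With 3 mice against 3, groups that do not overlap reach an exact two-sided permutation p of 0.1, the smallest this design allows.

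**Figure D2:**
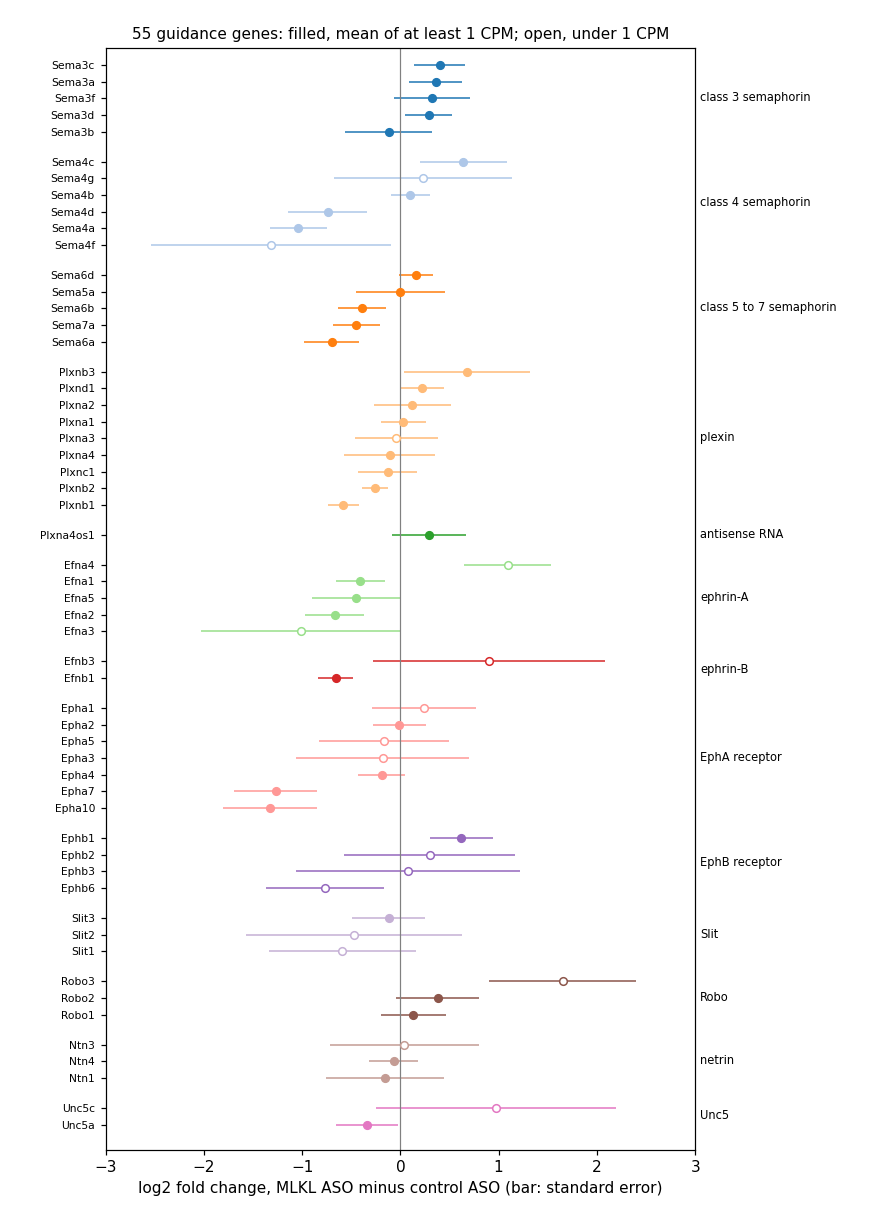
Log2 fold change, MLKL ASO minus control ASO, of the 55 guidance genes by family, with its standard error from edgeR as a bar. Filled points are genes averaging 1 CPM or more and open points those under it. Of the 5 class 3 semaphorins 4 lie right of 0, of the 5 ephrin-A genes 4 lie left of it, and the widest bars are those of Sema4f and Unc5c.

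The secreted class 3 semaphorins made up 56.3% to 59.9% of the summed guidance CPM in MLKL ASO mice and 45.2% to 54.2% in control ASO mice. How their levels compared turned on single mice. Sema3a, which makes endothelial cells retract and loosens their junctions through neuropilin-1, measured 388, 406 and 484 CPM in MLKL ASO mice 1603, 1604 and 1607, against 233, 273 and 487 CPM in control ASO mice 1601, 1602 and 1608. Sema3d, known for patterning the pulmonary veins, measured 273, 235 and 279 CPM with the MLKL ASO, against 162, 179 and 305 CPM with the control ASO. In both genes, control mice 1601 and 1602 lay below all MLKL ASO mice, while control mouse 1608 lay above all of them. Sema3f, a ligand of neuropilin-2 that restrains vessel growth, measured 48.5, 45.1 and 80.5 CPM with the MLKL ASO, against 27.4, 36.7 and 75.0 CPM with the control ASO. Sema3c, a ligand of both neuropilins with a part in forming the outflow tract of the heart, measured 24.6, 23.5 and 38.5 CPM with the MLKL ASO, against 19.3, 17.9 and 28.5 CPM with the control ASO. The groups overlapped in both genes, in each case because of mouse 1608. The log2 fold changes were 0.36 (standard error, SE, 0.27) for Sema3a, 0.29 (SE 0.24) for Sema3d, 0.32 (SE 0.39) for Sema3f and 0.40 (SE 0.26) for Sema3c, with edgeR adjusted p of 0.636, 0.676, 0.786 and 0.578. Sema3b, the least expressed of the class per kb, overlapped as well (2.40 ± 1.08 CPM with the MLKL ASO and 2.60 ± 0.994 CPM with the control ASO; SD, n = 3 each). Summed over its 5 members the class reached 737, 712 and 883 CPM with the MLKL ASO, against 445, 508 and 899 CPM with the control ASO.

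Without mouse 1608, Sema3a, Sema3c, Sema3d and Sema3f separated the groups as higher with the MLKL ASO. Their log2 fold changes were then 0.75 (SE 0.14), 0.64 (SE 0.23), 0.62 (SE 0.12) and 0.85 (SE 0.28), and the edgeR adjusted p were 0.116, 0.282, 0.132 and 0.248, so none passed. Without mouse 1601 instead, the same 4 genes stood at 0.14, 0.30, 0.10 and 0.03, and without MLKL ASO mouse 1607 at 0.25, 0.13, 0.23 and 0.00. The median over the 5 class 3 genes, 0.32 with all mice, was 0.13 without mouse 1607, 0.10 without mouse 1601, 0.18 without mouse 1602 and 0.64 without mouse 1608. Leaving out mouse 1608 moved the number of guidance genes with separate groups to 12 higher and 13 lower, where 16.7% of all genes were higher and 17.7% lower in those 5 mice. The 12 higher genes were the 4 class 3 semaphorins, Sema4b, Sema4c, Efna4, Epha1, Epha2, Ephb1, Plxna1 and Robo1.

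Setting each level against the summed CPM of the 10 pan-endothelial markers, a scale added after the data were seen, changed which guidance genes separated the groups. Sema3a then measured 129, 150 and 167 per 1000 CPM of endothelial markers in the MLKL ASO mice, against 112, 93.7 and 126 in the control ASO mice. Sema3d measured 90.7, 87.3 and 96.5 per 1000 CPM of these markers with the MLKL ASO, against 78.0, 61.4 and 78.6 with the control ASO. Plxnd1, a plexin that endothelial cells use as a receptor for class 3 semaphorins, measured 40.2, 34.7 and 40.3 on this scale with the MLKL ASO, against 32.4, 32.7 and 31.2 with the control ASO. On this scale 5 guidance genes were higher without overlap (Sema3a, Sema3d, Plxnd1, Ephb1 and Efna4), beside 5% of all genes, and 9 were lower, beside 5.01%. Those 9 were Efnb1, Plxnb1, Epha7, Sema6a, Efna2, Sema7a, Efna1, Epha10 and Unc5a, while Sema4a, Sema4d and Plxnb2 overlapped. The 10 markers were themselves measured in these libraries, and Cldn5 was the largest part of their sum in each mouse. It measured 842 to 1118 CPM with the MLKL ASO and 646 to 1260 CPM with the control ASO. The part of endothelial content in each difference was not tested.

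**Figure D3:**
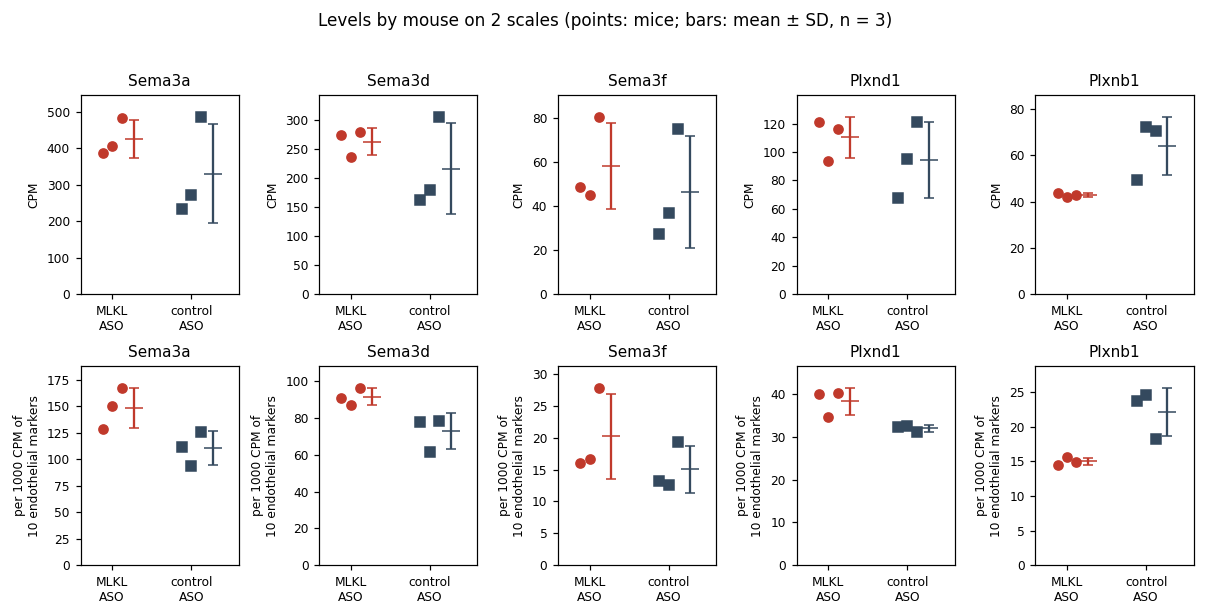
Level by mouse of 3 class 3 semaphorins and the plexins Plxnd1 and Plxnb1, in CPM (top) and per 1000 CPM of 10 summed endothelial markers (bottom), with the MLKL ASO mice left of the control ASO mice. Points are mice and bars the mean ± SD of 3 mice. Sema3a, Sema3d and Plxnd1 overlap in CPM and separate on the lower scale, Sema3f overlaps on both, and Plxnb1 is lower with the MLKL ASO on both.

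Among the membrane-bound class 4 semaphorins, Sema4a and Sema4d were lower in the MLKL ASO group without overlap, and Sema4c had a higher mean with overlap. Sema4a, a ligand of plexin-D1 and of plexin-B receptors that dendritic cells and lymphocytes also carry, measured 8.05, 11.3 and 5.76 CPM with the MLKL ASO, against 21.5, 17.0 and 13.2 CPM with the control ASO. No MLKL ASO mouse reached the lowest control, and the mean was 8.38 ± 2.80 CPM with the MLKL ASO and 17.2 ± 4.15 CPM with the control ASO (SD, n = 3 each). The log2 fold change was -1.04 (SE 0.29, edgeR adjusted p = 0.331, DESeq2 adjusted p = 0.0408), and -0.91 with an adjusted p of 0.0729 in the authors' deposited table. Leaving out each mouse in turn gave -1.32 to -0.83. The order of the control ASO mice, with 1601 highest and 1608 lowest, was also that of the summed T and NK cell and B cell markers. Among the MLKL ASO mice the order of Sema4a (1604, 1603, 1607 from the highest) was the reverse of that of the B cell markers and differed from that of the T and NK cell markers. The summed dendritic cell markers were highest in control mouse 1601 but lowest in control mouse 1602. In the MLKL ASO mice they ran in the reverse order to Sema4a, but that sum is mostly Ccr7 and Zbtb46. Of its other genes in these mice, Xcr1, Clec9a and Itgax were highest in mouse 1604, as Sema4a was, at 6.81, 6.07 and 15.8 CPM. Flt3 and Siglech were highest in mouse 1607, at 7.36 and 9.04 CPM. The part of these cells in the difference was not tested.

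Sema4d, the T cell semaphorin whose receptors are plexin-B1 on endothelium and Cd72 on B cells, measured 19.0, 19.6 and 19.3 CPM with the MLKL ASO, against 56.5, 20.3 and 19.9 CPM with the control ASO. Control mice 1602 and 1608 sat within 2 CPM of the MLKL ASO mice, so the difference rested on mouse 1601. That library also had the highest T and NK cell and B cell markers. The T and NK cell markers of mice 1602 and 1608, at 288 and 208 CPM, lay above those of all MLKL ASO mice as well. The part of these cells in the difference was not tested. The log2 fold change of Sema4d was -0.74 (SE 0.40, edgeR adjusted p = 0.512) and was -0.08 without mouse 1601. Sema4c, a ligand of plexin-B2, measured 31.8, 21.5 and 31.7 CPM with the MLKL ASO, against 10.3, 11.9 and 32.4 CPM with the control ASO. Only mouse 1608 kept its groups from separating. Its log2 fold change of 0.64 (SE 0.44, edgeR adjusted p = 0.605) was 1.35 (SE 0.22) without mouse 1608, where the edgeR adjusted p was 0.0958. Sema4b averaged 46.9 ± 2.47 CPM with the MLKL ASO and 43.8 ± 12.4 CPM with the control ASO (SD, n = 3 each), and Sema4f and Sema4g lay under 1 CPM in each mouse.

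In classes 5 to 7, Sema6a and Sema7a were lower without overlap. Sema6a, a transmembrane ligand of plexin-A2 and plexin-A4, measured 22.9, 20.9 and 21.8 CPM with the MLKL ASO, against 23.2, 30.5 and 52.6 CPM with the control ASO. Control mouse 1601 lay just above the MLKL ASO mice and mouse 1608 far above them. The log2 fold change was -0.70 (SE 0.28, edgeR adjusted p = 0.407), and it was -0.30 without mouse 1608. Scaled by median ratios, the groups of Sema6a overlapped. Sema7a, which is tethered to the membrane by a lipid anchor and binds plexin-C1 and β1 integrins, measured 2.60, 3.44 and 3.65 CPM with the MLKL ASO, against 4.08, 4.04 and 5.15 CPM with the control ASO, with a log2 fold change of -0.45 (SE 0.24, edgeR adjusted p = 0.509). Sema6d, the plexin-A1 ligand, overlapped at 31.9 ± 5.98 CPM with the MLKL ASO and 28.5 ± 2.69 CPM with the control ASO (SD, n = 3 each). Sema6b and Sema5a overlapped too, at log2 fold changes of -0.39 and 0.00.

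Of the 9 plexins, the semaphorin receptors, 4 lay above 0 and 5 below it, and the B-type plexins Plxnb1 and Plxnb2 were lower without overlap. Plxnb1, the receptor of Sema4d, measured 43.8, 42.0 and 43.0 CPM with the MLKL ASO, against 49.4, 72.1 and 70.5 CPM with the control ASO. The MLKL ASO mice lay within 2 CPM of each other, all below the lowest control. The mean was 42.9 ± 0.884 CPM with the MLKL ASO and 64.0 ± 12.7 CPM with the control ASO (SD, n = 3 each), a log2 fold change of -0.58 (SE 0.16, edgeR adjusted p = 0.331, DESeq2 adjusted p = 0.103). Without 1 mouse at a time it was -0.75 to -0.48. Plxnb2, the receptor of Sema4c, measured 14.5, 13.7 and 14.3 CPM with the MLKL ASO, against 16.5, 16.5 and 17.9 CPM with the control ASO. This difference was small, a log2 fold change of -0.26 (SE 0.13, edgeR adjusted p = 0.498), and in the authors' deposited table it was -0.04.

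The other plexins overlapped between the groups. Plxnd1 measured 121, 93.6 and 116 CPM with the MLKL ASO, against 67.4, 95.3 and 121 CPM with the control ASO (log2 fold change 0.22, SE 0.22, edgeR adjusted p = 0.724). Plxna2, a receptor of Sema6a and, with neuropilins, of class 3 semaphorins, measured 29.4, 27.3 and 42.9 CPM with the MLKL ASO, against 15.1, 28.5 and 47.7 CPM with the control ASO. Both genes were lowest in mouse 1601, as the endothelial markers were. Plxnc1, the Sema7a receptor, which myeloid cells also express, measured 12.5, 14.4 and 16.4 CPM with the MLKL ASO, against 22.3, 15.4 and 9.63 CPM with the control ASO. Its order in the control ASO mice was opposite to that of the endothelial markers. The macrophage and monocyte markers summed to 736, 573 and 579 CPM with the MLKL ASO, against 1096, 543 and 659 CPM with the control ASO. Their order differed from that of Plxnc1 in both groups. The 8 neutrophil markers summed to 720, 1983 and 1134 CPM with the MLKL ASO. With the control ASO they summed to 1824, 491 and 233 CPM, the order of Plxnc1 in those mice. Both were lowest in mouse 1603 among the MLKL ASO mice, where the markers were highest in mouse 1604 and Plxnc1 in mouse 1607. The part of any cell type in these levels was not tested. Plxna1, Plxna3, Plxna4 and Plxnb3 had log2 fold changes of -0.11 to 0.68. The antisense RNA Plxna4os1 averaged 2.59 ± 1.09 CPM with the MLKL ASO and 2.12 ± 0.519 CPM with the control ASO (SD, n = 3 each). It lies inside Plxna4 on the other strand, and since the sources used here do not state how strand was treated in counting, reads of the genes may not have been told apart.

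Of the 7 ephrins 5 lay below 0 and 2 above it, where 51.2% of all genes tested lay below 0, and 0 passed the adjusted p in edgeR. Groups lay apart in 2 lower ephrins, Efnb1 and Efna2, and in 1 higher ephrin, Efna4. Over all genes tested, groups lay apart as lower in 9.71% and as higher in 9.02%. Efnb1, a transmembrane ephrin that signals back into the cell that carries it, measured 12.7, 12.7 and 9.10 CPM with the MLKL ASO, against 17.2, 17.5 and 19.8 CPM with the control ASO. The groups were well apart, at 11.5 ± 2.10 CPM with the MLKL ASO and 18.2 ± 1.41 CPM with the control ASO (SD, n = 3 each). The log2 fold change was -0.66 (SE 0.18, edgeR adjusted p = 0.328, DESeq2 adjusted p = 0.0543), it stayed at -0.74 to -0.51 when 1 mouse at a time was left out, and in the authors' deposited table it was -0.60 with an adjusted p of 0.122. Efnb1 had the smallest unadjusted p of the 55 guidance genes in edgeR and lay between 3.15 and 4.72 per 1000 CPM of endothelial markers with the MLKL ASO, against 5.10 to 8.25 with the control ASO.

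Efna1, the ligand of Epha2 on endothelium, measured 91.1, 79.2 and 95.0 CPM with the MLKL ASO, against 74.3, 128 and 151 CPM with the control ASO. Control mice 1602 and 1608 lay above all MLKL ASO mice and control mouse 1601 below them, and the log2 fold change of -0.41 (SE 0.25, edgeR adjusted p = 0.556) was -0.67 (SE 0.14, edgeR adjusted p = 0.184) without it. Efna2 measured 2.05, 1.51 and 2.07 CPM with the MLKL ASO, against 2.23, 3.87 and 2.82 CPM with the control ASO (log2 fold change -0.67, SE 0.30, edgeR adjusted p = 0.441; -0.43 without mouse 1602). Efna4 was the guidance gene that separated in the other direction, with 0.682, 0.755 and 1.54 CPM with the MLKL ASO, against 0.421, 0.434 and 0.539 CPM with the control ASO (log2 fold change 1.09, SE 0.44, edgeR adjusted p = 0.404). It rested on 41.9 to 136 estimated counts per MLKL ASO library and 34 to 38 per control ASO library, and the log2 fold change was 0.62 without mouse 1607. Efna3 and Efnb3 lay under 0.4 CPM in every mouse.

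**Figure D4:**
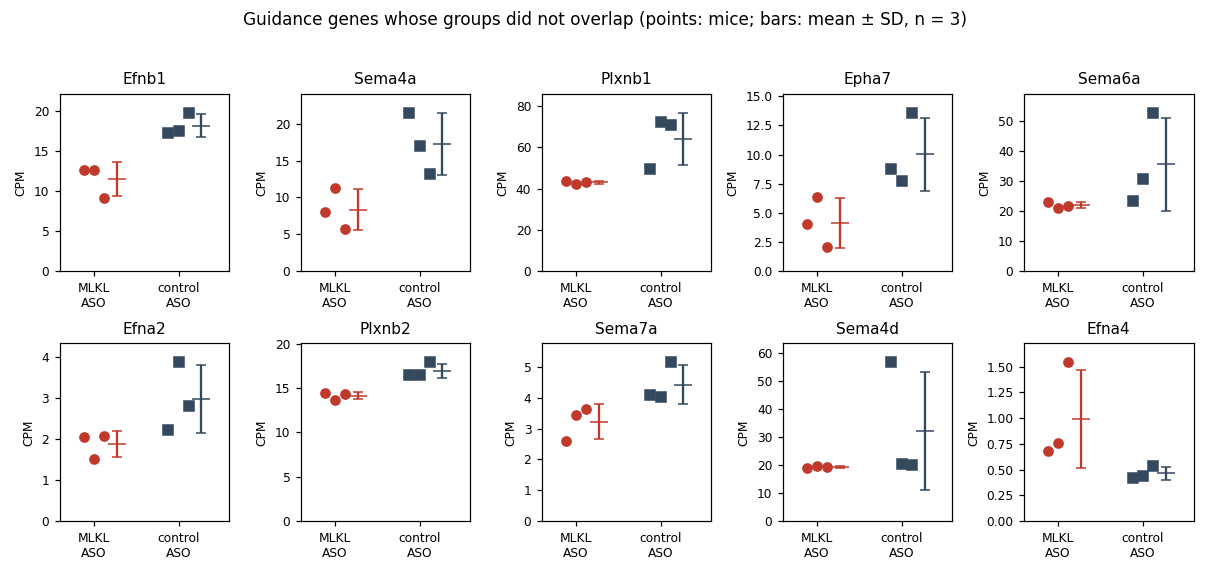
CPM by mouse of the 10 guidance genes whose groups did not overlap, ordered by edgeR p for the 9 lower genes, with Efna4 last. Red circles are MLKL ASO mice, dark squares control ASO mice, and bars the mean ± SD of 3 mice. The MLKL ASO mice lie tightly together for Plxnb1, Sema6a, Plxnb2 and Sema4d, and the control ASO mean of Sema4d is set by mouse 1601.

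Of the 11 Eph receptor genes, 7 lay below 0 and 4 above it. Epha7, a receptor of ephrin-A ligands, measured 4.03, 6.34 and 2.08 CPM with the MLKL ASO, against 8.73, 7.75 and 13.6 CPM with the control ASO. Every MLKL ASO mouse lay below every control ASO mouse, with a log2 fold change of -1.27 (SE 0.42, edgeR adjusted p = 0.364, DESeq2 adjusted p = 0.0838) and -1.41 with an adjusted p of 0.0651 in the authors' deposited table. Epha10, whose kinase domain is inactive and which is named here after its values were seen, measured 1.56, 0.861 and 1.07 CPM with the MLKL ASO, against 1.25, 3.85 and 3.66 CPM with the control ASO. Its groups overlapped only between MLKL ASO mouse 1603 and control ASO mouse 1601, and its log2 fold change of -1.33 (SE 0.48, edgeR adjusted p = 0.380) was the lowest of the 55 genes. Epha2, a receptor of ephrin-A1 that endothelial cells carry, measured 16.5, 16.3 and 20.6 CPM with the MLKL ASO, against 13.3, 14.7 and 25.8 CPM with the control ASO, a log2 fold change of -0.01 (SE 0.27). It was 0.35 without mouse 1608. Among the EphB receptors, Ephb1 measured 3.07, 2.45 and 2.91 CPM with the MLKL ASO, against 1.29, 1.69 and 2.53 CPM with the control ASO, overlapping only between MLKL ASO mouse 1604 and control ASO mouse 1608. Its log2 fold change was 0.62 (SE 0.32, edgeR adjusted p = 0.492), and 1.21 with an adjusted p of 0.116 in the authors' deposited table. Ephb2 averaged 0.253 ± 0.0504 CPM with the MLKL ASO and 0.204 ± 0.165 CPM with the control ASO (SD, n = 3 each), and Ephb3 and Ephb6 also had a mean under 1 CPM.

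The promoters of the 4 genes with the smallest unadjusted edgeR p are printed to show what stands before genes whose groups lay apart. Each is the 250 bases before the transcription start in RefSeq (GRCm38.p6), 5′ to 3′ on the strand of the gene, the first start listed where RefSeq has several. Efnb1 lies at chrX:99135811-99136060 on the plus strand, Sema4a at chr3:88461183-88461432 on the minus strand, Plxnb1 at chr9:109095186-109095435 on the plus strand and Epha7 at chr4:28812881-28813130 on the plus strand. Capitals mark TGGGAA, the core bound by RBPJ, the DNA-binding partner of Notch.
Efnb1: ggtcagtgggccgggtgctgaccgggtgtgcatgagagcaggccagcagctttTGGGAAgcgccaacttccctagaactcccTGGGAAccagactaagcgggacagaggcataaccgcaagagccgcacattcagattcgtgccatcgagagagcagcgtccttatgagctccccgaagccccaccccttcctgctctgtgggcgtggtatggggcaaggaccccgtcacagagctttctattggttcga
Sema4a: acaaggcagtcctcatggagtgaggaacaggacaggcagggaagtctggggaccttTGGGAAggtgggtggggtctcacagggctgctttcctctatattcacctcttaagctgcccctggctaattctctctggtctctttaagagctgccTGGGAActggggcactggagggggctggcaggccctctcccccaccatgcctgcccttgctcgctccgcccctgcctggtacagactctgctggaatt
Plxnb1: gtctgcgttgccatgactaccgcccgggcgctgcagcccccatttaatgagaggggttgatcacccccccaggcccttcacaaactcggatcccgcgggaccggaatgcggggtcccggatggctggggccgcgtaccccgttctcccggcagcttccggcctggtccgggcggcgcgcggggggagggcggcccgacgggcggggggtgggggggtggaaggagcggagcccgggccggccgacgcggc
Epha7: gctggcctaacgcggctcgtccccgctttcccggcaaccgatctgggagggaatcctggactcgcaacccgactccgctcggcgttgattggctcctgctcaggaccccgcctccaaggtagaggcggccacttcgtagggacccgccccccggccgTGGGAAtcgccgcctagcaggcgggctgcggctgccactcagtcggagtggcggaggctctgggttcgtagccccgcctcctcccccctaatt
The letters TGGGAA, searched on both strands, occurred 2 times before Efnb1, 2 times before Sema4a, 1 time before Epha7 and 0 times before Plxnb1. Over all 27025 promoters of this length 21.5% held it, beside 9 of the 46 guidance genes with a listed promoter (19.6%). The AP-1 letters TGANTCA and the E-box CACGTG occurred in none of the 4 windows (0 each), in 2 of 46 guidance promoters each, and in 6.87% and 6.05% of all promoters. These matches are letters in a window and not shown binding sites. The Plxnb1 window was the richest in G and C, at 75.2%, against 59.6% to 69.2% for the others.

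In CPM, the groups overlapped in each Slit, Robo, netrin and Unc5 gene. Robo1, an endothelial receptor of Slit proteins, measured 14.3, 13.5 and 11.4 CPM with the MLKL ASO, against 9.44, 7.81 and 18.7 CPM with the control ASO (log2 fold change 0.13, SE 0.33, edgeR adjusted p = 0.915). Mouse 1608 again held the highest value and the other control ASO mice the lowest. Slit3, a ligand of Robo receptors on endothelium, averaged 1.38 ± 0.451 CPM with the MLKL ASO and 1.5 ± 0.390 CPM with the control ASO (SD, n = 3 each). Slit2 gave 0.130, 0.287 and 0 CPM with the MLKL ASO, against 0.124, 0.217 and 0.227 CPM with the control ASO, and the 0 in mouse 1607 allows up to 0.0339 CPM by counting error alone. Robo3, a divergent Robo that guides axons across the midline and which is named here after its values were seen, had the highest log2 fold change of the 55 genes, 1.65 (SE 0.75, edgeR adjusted p = 0.443). It measured 0.552, 1.18 and 1.22 CPM with the MLKL ASO, against 0.186, 0.664 and 0.0851 CPM with the control ASO, so the groups overlapped. Behind these values lay 34 to 108 estimated counts per MLKL ASO library and 6 to 55 per control ASO library. In the authors' deposited table the log2 fold change of Robo3 was 2.41, with an adjusted p of 0.105.

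Ntn4, a netrin of vascular basement membranes, overlapped between the groups, at 4.17 ± 0.785 CPM with the MLKL ASO and 4.37 ± 0.698 CPM with the control ASO (SD, n = 3 each; log2 fold change -0.07, SE 0.25, edgeR adjusted p = 0.944). Ntn1, the founding axon attractant of the family, ranged from 0.544 to 1.47 CPM with the MLKL ASO and from 0.583 to 2.27 CPM with the control ASO. Its receptor gene Unc5c lay under 0.6 CPM in every mouse and Unc5a averaged 2.02 ± 0.412 CPM with the MLKL ASO and 2.57 ± 0.810 CPM with the control ASO (SD, n = 3 each).

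Control mouse 1608 was the highest of the 6 mice in 18 of the 55 guidance genes, and control mouse 1601 the lowest in 14. Guidance genes with a mean of at least 1 CPM had a median coefficient of variation of 17.7% among MLKL ASO mice and 32.4% among control ASO mice. The variation was smaller in MLKL ASO mice for 24 of these 38 genes (63.2%), beside 72.7% of all genes at that level.

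**Figure D5:**
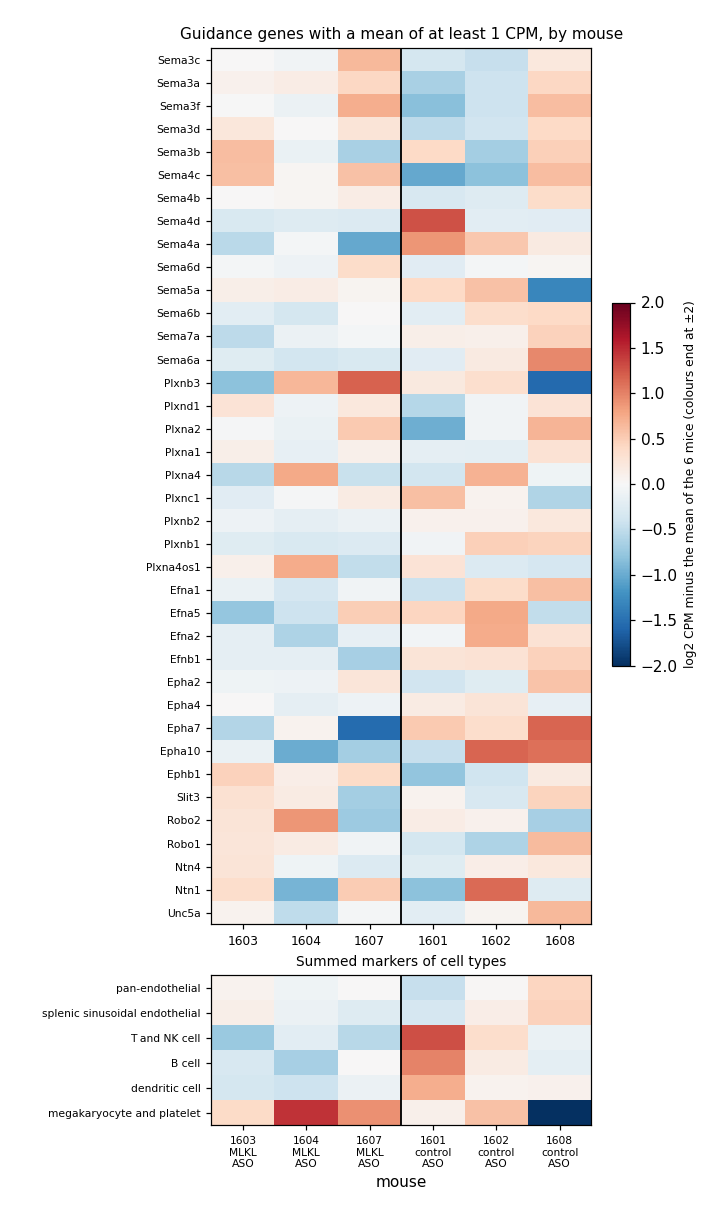
Log2 CPM of the 38 guidance genes with a mean of at least 1 CPM, less the mean over 6 mice, with MLKL ASO mice left of the line and control ASO mice right of it; the lower panel shows summed markers of cell types in the same way. Red is above the mean and blue below it. Mouse 1608 is high for Sema6a, Robo1 and endothelial markers, and for Sema4c together with mice 1603 and 1607. Mouse 1601 is high for Sema4d, Sema4a and lymphocyte markers.

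A list of 44 co-receptors, adaptors and effectors of the same pathways was set beside the guidance genes, of which 43 were in the table and 42 were tested. In edgeR 0 of them passed the adjusted p. Unadjusted p under 0.05 were found for 2 higher genes (Srgap1 and Flrt3) and 1 lower gene (Met), or 4.76% and 2.38%, beside 4.89% and 6.96% of all genes tested, and 28 of 42 (66.7%) had log2 fold changes below 0, beside 51.2% of all genes, with a median of -0.12. DESeq2 called 1 higher, Srgap1, and 0 lower, beside 1.13% of all genes higher and 1.47% lower. By limma-voom 0 were called, beside 0.0456% of all genes higher and 0.0658% lower. Groups did not overlap for 7.14% of the 42 as higher and 2.38% as lower, beside 9.02% and 9.71% of all genes tested. Srgap1, named here after its values were seen, a GTPase-activating protein that binds Robo receptors, measured 5.52, 3.76 and 4.45 CPM with the MLKL ASO, against 1.87, 2.39 and 1.74 CPM with the control ASO. Every MLKL ASO mouse lay above every control ASO mouse, with a log2 fold change of 1.19 (SE 0.26, edgeR adjusted p = 0.269, DESeq2 adjusted p = 0.00124), 1.26 with an adjusted p of 0.00115 in the authors' deposited table, and 1.02 to 1.34 without 1 mouse at a time.

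The neuropilins overlapped between the groups. Nrp1 measured 140, 121 and 92.4 CPM with the MLKL ASO, against 118, 173 and 174 CPM with the control ASO (log2 fold change -0.39, SE 0.21, edgeR adjusted p = 0.504), and Nrp2 33.5 ± 0.989 CPM with the MLKL ASO and 41.4 ± 14.9 CPM with the control ASO (SD, n = 3 each). Of the arterial and venous guidance genes set aside by the choice of members, Sema3g, an arterial semaphorin, measured 5.94, 9.27 and 10.9 CPM with the MLKL ASO, against 11, 11 and 12.3 CPM with the control ASO, without overlap (log2 fold change -0.39, SE 0.24, edgeR adjusted p = 0.566). The arterial ephrin Efnb2 averaged 19.3 ± 1.93 CPM with the MLKL ASO and 23.2 ± 6.79 CPM with the control ASO, and its venous receptor Ephb4 41.7 ± 6.34 CPM with the MLKL ASO and 42.3 ± 16.3 CPM with the control ASO (SD, n = 3 each). Robo4, the endothelial Robo, measured 36, 34.7 and 27.7 CPM with the MLKL ASO, against 33.1, 37.7 and 79 CPM with the control ASO, with mouse 1608 far above the rest. Unc5b, a netrin receptor of endothelial tip cells, averaged 8.56 ± 1.48 CPM with the MLKL ASO and 11.7 ± 4.41 CPM with the control ASO (SD, n = 3 each).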

How the data were processed

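Bulk RNA of splenic endothelial cells was sequenced, 1 library per mouse, with groups taken from the sample titles. Per the labels' protocols, a Direct-zol kit served for RNA and a strand-keeping (directional) mRNA kit of New England BioLabs for libraries. Per the submitters' processing notes the tools were fastp 0.20.1, Salmon 1.3.0 and DESeq2. The genome build, the annotation and the summing of transcripts to genes were not given in the sources used. The deposited table holds estimated counts per gene symbol, not normalised, of which 69.3% are not whole (tolerance 1e-06). The authors' DESeq2 table gives, per the file headers, a signal (the mean normalised count of all libraries), a log2 ratio of groups with its error, the score of a Wald test, and p-values raw and adjusted. Its direction is not stated. Across 19728 genes its log2 fold changes correlated at r = 0.977 with MLKL ASO minus control ASO, so positive values were read as higher with the MLKL ASO. Genes are not independent replicates. For 49 of 55 guidance genes the sign was the same.

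Estimated counts were rounded and fitted in R 4.3.3 with edgeR 4.0.16 (default expression filter, TMM scaling, quasi-likelihood test, two-sided, Benjamini-Hochberg over 19745 genes, threshold 0.05). CPM use TMM-scaled totals. A standard error is the log2 fold change divided by the square root of its F value. Alternatives were median-ratio scaling, other count filters, DESeq2 1.42.0, limma 3.58.1 (voom with sample weights), leaving out each mouse and, added after the data were seen, scaling to endothelial markers. The scripts were checked on simulated counts. Exon lengths are unions over GENCODE M21 transcripts, whose build need not be that of the counts. Intervals from a count of 0 use 3 counts and cover counting error only. Titles name separate mice, so p-values measure the spread between mice.

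The guidance genes and lists were chosen with earlier results of these data known. Named genes are those past the threshold, up to 20 whose groups lay apart at a mean of 1 CPM or more, and 21 fixed names; others are said to be named after their values were seen or are given by range. Genes with similar copies are uncertain, as Salmon splits shared reads.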

Additional observations from a re-analysis of the deposited data

How the results depend on the processing

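The number of guidance genes past the adjusted p, 0 in edgeR, was the same under median-ratio scaling, both count filters and limma-voom, and in each fit that left out a mouse. DESeq2 gave 1 lower guidance gene (Sema4a) and 1 effector gene (Srgap1). Over all genes there were 224 higher and 291 lower calls in DESeq2, 9 and 13 by limma-voom, and 1 and 1 in edgeR, and leaving out a mouse gave 0 to 10 higher and 0 to 9 lower. The count of guidance genes with groups apart and lower was 8 by median ratios (9.35% of all genes), 9 per 1000 CPM of endothelial markers (5.01% of all genes) and 9 to 13 without 1 mouse (13.4% to 17.7% of all genes). The count of those higher was 0 with at least 1 CPM in 3 libraries, where 38 guidance genes were tested and 9.02% of all genes were higher. It was 5 on the endothelial scale (5% of all genes) and 2 to 12 without 1 mouse (12.6% to 16.7% of all genes). The median log2 fold change of guidance genes was 0.07 by limma-voom, against -0.07 in edgeR, and ranged from -0.23 (without mouse 1603) to 0.00 without 1 mouse; the cause was not tested.

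Of 338 values of named genes under alternatives, 24 changed sign and 1 (Sema4a in DESeq2) gained a call. With no call in edgeR to lose, the others show only a kept sign, and sizes moved, as for Sema4d (-0.99 to -0.08 without 1 mouse), Plxnd1 (0.01 to 0.44) and Sema3f (0.00 to 0.85). By limma-voom the sign changed for Epha2 (0.16), Slit3 (0.14), Unc5c (-0.79) and Ephb4 (0.14). Without 1 mouse at a time the range crossed 0 for Epha2 (-0.21 to 0.35), Ephb2 (-0.24 to 0.68), Ntn1 (-0.51 to 0.62), Ntn4 (-0.24 to 0.04), Plxna2 (-0.22 to 0.60), Plxnc1 (-0.39 to 0.19), Robo1 (-0.11 to 0.60), Sema6d (-0.01 to 0.24), Slit2 (-1.60 to 0.14), Slit3 (-0.31 to 0.13), Nrp2 (-0.54 to 0.01) and Ephb4 (-0.22 to 0.34). Depth limits the 17 guidance genes with a mean under 1 CPM most. No paired analysis was possible because mouse numbers do not recur between the groups.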
